A study of Homo sapiens with 4 samples.

Results

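Integrins and laminins are the adhesion receptors of the cell surface and their best known ligands in the basement membrane. They were measured in the vector control clone (vec) and the PKP3 knockdown clone (shpkp3-2), which were derived from HCT116 cells, a human colorectal carcinoma line. The members are the genes whose name on the array is that of an integrin alpha or beta subunit or of a laminin alpha, beta or gamma chain. Names that only begin in the same way (ITGB1BP1, ITGB1BP2, ITGB1BP3, ITGB3BP, ITGB4BP and ITGBL1) were left out. The genes reported are 37, with 67 probes, among 30986 gene names with a probe. Of the 37 genes, 18 are alpha subunits, 8 are beta subunits and 11 are laminin chains, and the brightest probe stands for each gene.

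Each clone was measured on 2 Agilent arrays, with Cy3 as the only dye. The vec clone carries the vector alone and the shpkp3-2 clone carries an shRNA against PKP3, a plaque protein of the desmosome. Each is 1 clone, so that a difference between them is a difference between 2 clones of the line. Cells of both clones were kept under drug selection, which the sample labels give as puromycin and the methods as blasticidin. The first vec and the first shpkp3-2 array hold RNA of 1 collection and the second arrays RNA of another. A single slide held all 4 arrays, the shpkp3-2 arrays in neighbouring positions followed by the vec arrays, so that position and clone cannot be told apart.

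An integrin is a pair of an alpha and a beta subunit that spans the plasma membrane and joins the matrix outside to the cytoskeleton inside. The partner chain sets what a receptor binds, which may be laminins, collagens, proteins with an RGD motif such as fibronectin and vitronectin, or the counter-receptors of leukocytes. A laminin is a cross-shaped trimer of an alpha, a beta and a gamma chain. In epithelia, the integrin of ITGA6 and ITGB4 anchors hemidesmosomes to a laminin of the basement membrane, whereas integrins with ITGB1 link other matrix proteins to focal adhesions.

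The processed signal of a spot was divided by the 75th percentile of its array, and this scaled signal is given below unless the text says log2. The 75th percentile was 499 on the first vec array and between 374 and 381 on the other arrays. Between 60.5% and 63.5% of spots were well above background and none was saturated. The mRNA of PKP3 was lower in shpkp3-2, the knockdown clone by its label, with scaled signals of 41.8 and 59.9 in vec and of 9.01 and 8.23 in shpkp3-2. On the log2 scale the difference was -2.54 ± 0.23 (SE, n = 2 arrays per clone, limma adjusted p = 0.0188). Of 12 markers of colon epithelium 8 were well above background on every array, whereas CEACAM5 and CDH17 were so on none. Of the markers of other cell types, 5 of 8 for leukocytes, 2 of 8 for fibroblasts and 1 of 7 for endothelium were well above background on every array. Both clones come from the same cell line. In bulk RNA, fewer cells with an mRNA and less of it per cell cannot be told apart.

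None of the integrin and laminin genes passed the test. Of the 37 genes 28 could be tested, namely 13 alpha subunits, 5 beta subunits and 10 laminin chains. Each of these 28 had a signal called well above background on all 4 arrays. With limma and an adjusted p under 0.05, 0 of the 28 genes were higher and 0 were lower in shpkp3-2. Over all 20259 genes tested, 56 (0.276%) were higher and 32 (0.158%) were lower. At an unadjusted p under 0.05, 6 members were higher and 1 was lower, against 7.64% and 4.54% of all genes. The 6 were LAMA3, LAMA4, LAMB2, LAMB3, LAMC3 and ITGAX, and the 1 lower was ITGA9. The adjusted p of the members ran from 0.212 to 0.983.

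The median log2 fold change of the 28 genes was 0.05, against 0.06 for all genes tested. The values ran from -0.76 for ITGA9 to 1.12 for ITGAX. The 10 laminin chains had a median of 0.30, with 9 of 10 above 0, against 58.3% of all genes. Without the first vec array, the one with the higher 75th percentile, 6 of the 10 were above 0. Of the markers of colon epithelium that were well above background on every array, 8 of 8 were above 0, with a median of 0.28. The 18 integrin subunits had a median of -0.03, with 8 above 0. This median lay above 0 with normexp background correction (0.03) and without the filter on dim probes, where it was 0.10 beside 0.13 for the laminins. The arrays of the clones did not overlap for 8 members with the higher values in shpkp3-2 and for 5 with the higher values in vec, against 28.4% and 17.2% of all genes. Together these are 13 of 28 members, against 45.6% of all genes. No member reached 2-fold on each shpkp3-2 array, a rule that 1.89% of all genes met. For 18 of the 28 genes the 95% interval of the difference lay within 2-fold in either direction, against 78.2% of all genes, and the median SE was 0.21 on the log2 scale.

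**Figure D1:**
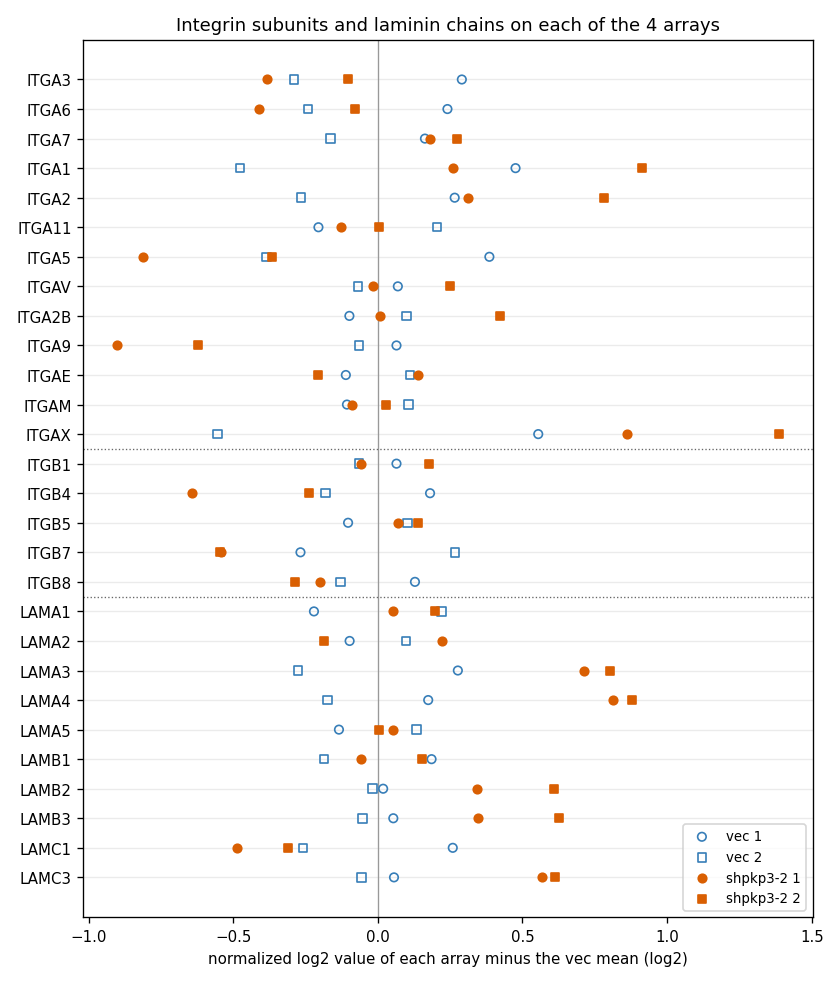
Normalized log2 value of each tested gene on each array, minus the mean of the 2 vec arrays. Open symbols are vec, filled symbols are shpkp3-2, circles are the first RNA collection and squares the second. Dotted lines part alpha subunits, beta subunits and laminin chains. Among the laminins, the filled symbols lie to the right of the open ones for LAMA3, LAMA4, LAMB2, LAMB3 and LAMC3 and to the left for LAMC1. Among the integrins, they lie to the right for ITGA2, ITGA7 and ITGAX and to the left for ITGA9, ITGB4, ITGB7 and ITGB8. The clones did not overlap for 45.6% of all genes.

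LAMA3 and LAMB3, laminin chains of epithelial basement membranes, were both measured higher in shpkp3-2, though neither passed the adjusted test. LAMA3 is an alpha chain that occurs in several laminins of epithelia. In vec its scaled signal was 0.575 and 0.392, and in shpkp3-2 it was 0.778 and 0.827. The ranges of the clones did not overlap. This was a log2 fold change of 0.76 ± 0.24 (SE, n = 2, adjusted p = 0.306), which is 1.69-fold with a 95% interval from 1.13 to 2.52. Before scaling, the signals of LAMA3 were 287 and 149 in vec and 295 and 310 in shpkp3-2, which did not overlap either, though the first vec array lay close to the shpkp3-2 arrays. Without the second vec array the log2 fold change of LAMA3 was 0.48. The unscaled signals overlapped for LAMB3 (24778.5 and 17586 in vec, 23057 and 27642 in shpkp3-2) and for LAMB2 (7515 and 5599 in vec, 7154 and 8485 in shpkp3-2). With quantile normalization in place of this scaling, the log2 fold change was 0.74 for LAMA3, 0.38 for LAMB3 and 0.39 for LAMB2.

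LAMB3, a beta chain of epithelial laminin, had scaled signals of 49.7 and 46.1 in vec and of 60.9 and 73.9 in shpkp3-2. The fit gave a log2 fold change of 0.49 ± 0.19 (adjusted p = 0.393). The lower shpkp3-2 array lay above the higher vec array. The reading of each gene rests on a single tested probe. LAMB3 has 1 probe on the array. LAMA3 has 3, and those not tested were well above background on no array. The probes that gave these values are shown as bases 16 to 45 of each 60-base probe, 5′ to 3′ in lower case.
LAMA3 probe: tgaccatggatacccatcactttggcattc
LAMB3 probe: ctggggaggaatcctggaccaagcacaaaa

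Among the other alpha chains, LAMA4 is best known from the basement membranes of vessels and muscle. By its brightest probe it had the largest difference of any laminin. With the mean of its tested probes the log2 fold change was 0.38, against 0.76 for LAMA3. The brightest LAMA4 probe gave scaled signals of 0.646 and 0.508 in vec and of 1.01 and 1.05 in shpkp3-2. On the log2 scale the difference was 0.85 ± 0.20 (adjusted p = 0.212), or 1.80-fold with a 95% interval from 1.28 to 2.52. The other LAMA4 probes did not show that size. The second gave 0.0755 and 0.0834 in vec and 0.0905 and 0.0985 in shpkp3-2, a log2 fold change of 0.25 ± 0.18. The last gave 0.0616 and 0.082 against 0.0646 and 0.0836, a log2 fold change of 0.05 ± 0.23. These dim probes carry the accession of another LAMA4 transcript and share nearly all of their sequence, as the same bases 16 to 45 show, so that they are not separate readings of the gene.
LAMA4 brightest probe: tcgagttgaacaggacttaaacgaatcatc
LAMA4 second probe: gttcggaaacttgaaataaagagttttcct
LAMA4 last probe: ttcggaaacttgaaataaagagttttcctt

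LAMA1, the alpha chain of the embryonic laminin, was dim, with scaled signals of 0.0924 and 0.126 in vec and of 0.112 and 0.123 in shpkp3-2. This was a log2 fold change of 0.13 ± 0.22, whereas its second, dimmer probe gave 0.72 ± 0.18 (adjusted p = 0.230), or 0.32 with normexp background correction. LAMA2, the alpha chain of the muscle basement membrane, gave 0.449 and 0.513 in vec and 0.559 and 0.422 in shpkp3-2. LAMA5, the most widespread alpha chain of adult epithelia, gave 0.505 and 0.608 in vec, against 0.575 and 0.555 in shpkp3-2. The log2 fold changes of LAMA2 and LAMA5 were 0.02 ± 0.21 and 0.03 ± 0.19, and their arrays overlapped. For LAMA5 the 95% interval ran from 0.741-fold to 1.40-fold.

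Among the beta and gamma chains, LAMB2 and LAMC3 had higher values and LAMC1 had lower values in shpkp3-2. LAMB2, which replaces LAMB1 in the laminins of the neuromuscular junction and the kidney filter, had scaled signals of 15.1 and 14.7 in vec and of 18.9 and 22.7 in shpkp3-2. The fit gave a log2 fold change of 0.48 ± 0.19 (adjusted p = 0.392), and its other probes gave 0.49 and 0.48. LAMC3, a gamma chain of a few tissues, had scaled signals of 1.90 and 1.75 in vec and of 2.70 and 2.79 in shpkp3-2. Its log2 fold change was 0.59 ± 0.17 (adjusted p = 0.286), with 0.37 from its second probe. Its dimmest probe was tested through shpkp3-2 alone, since 1 of the vec arrays was not well above background for it, and is not compared. LAMC1, the gamma chain of most laminins, gave 2.28 and 1.59 in vec and 1.36 and 1.53 in shpkp3-2, a log2 fold change of -0.40 ± 0.23 (adjusted p = 0.542), which was -0.14 without the first vec array. LAMB1, the common beta chain, gave 5.18 and 4.005 in vec and 4.37 and 5.06 in shpkp3-2, a log2 fold change of 0.05 ± 0.21. The arrays overlapped for LAMB1 and not for the other 3. No array called LAMB4 well above background.

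All 13 laminin trimers considered had every chain well above background on all 4 arrays. In the trimer of LAMA5, LAMB1 and LAMC1, the common laminin of adult epithelium, the log2 fold changes of the chains were 0.03, 0.05 and -0.40. In the trimer of LAMA3, LAMB2 and LAMC1 they were 0.76, 0.48 and -0.40. In the trimer of LAMA4, LAMB2 and LAMC3 they were 0.85, 0.48 and 0.59. These are mRNA levels of chains, and no assembled trimer was measured.

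**Figure D2:**
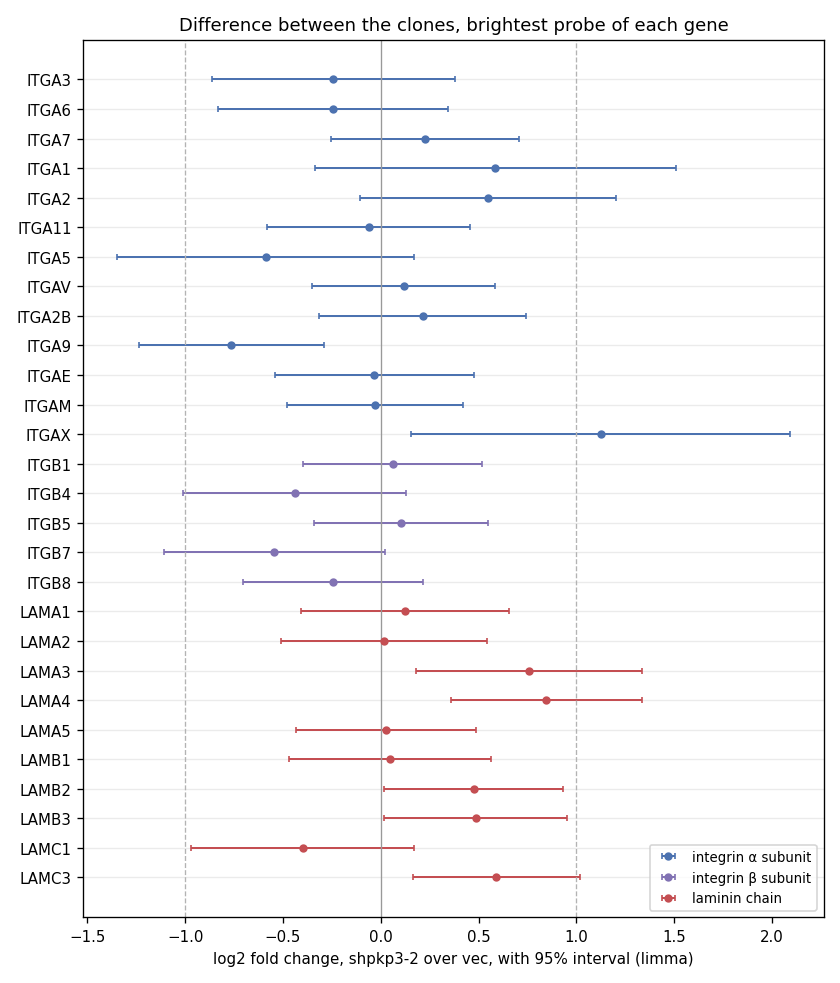
Log2 fold change of shpkp3-2 over vec for the brightest probe of each tested gene, with the 95% interval of limma. Dashed lines mark 2-fold. The interval lay above 0 for LAMA3, LAMA4, LAMB2, LAMB3, LAMC3 and ITGAX and below 0 for ITGA9, and no gene passed after adjustment over all probes.

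Among the 26 member genes with a promoter window in the table, LAMA3 and LAMB3 were those that held the motif TGACTCA, which transcription factors of the AP-1 family bind. The 250 bases before each annotated start in RefSeq (GRCh38.p14) were searched on both strands, in 33 windows of 26 member genes. The motif was in 2 of these windows and in 4.203% of the 35116 windows of all genes. LAMA4 was among the genes whose window did not hold it. The window of LAMA3, chr18:23872770-23873019 on the plus strand, lies inside the gene, before an internal start. It holds the motif with its first base at 125 and, in the reverse orientation, at 69 bases before the start. The window of LAMB3, chr1:209651375-209651624 on the minus strand, belongs to the most downstream of 3 starts and holds the motif at 67 bases before it. Both are shown 5′ to 3′ on the strand of the gene, with the motif in capitals. The files do not tell from which start the measured mRNA came. A further LAMA3 probe, which carries the accession of another LAMA3 transcript, was well above background on no array.
LAMA3: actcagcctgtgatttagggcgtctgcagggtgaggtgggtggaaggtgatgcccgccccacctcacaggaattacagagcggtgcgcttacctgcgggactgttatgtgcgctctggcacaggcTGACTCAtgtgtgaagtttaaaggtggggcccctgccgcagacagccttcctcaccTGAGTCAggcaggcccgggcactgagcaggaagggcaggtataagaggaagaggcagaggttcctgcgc
LAMB3: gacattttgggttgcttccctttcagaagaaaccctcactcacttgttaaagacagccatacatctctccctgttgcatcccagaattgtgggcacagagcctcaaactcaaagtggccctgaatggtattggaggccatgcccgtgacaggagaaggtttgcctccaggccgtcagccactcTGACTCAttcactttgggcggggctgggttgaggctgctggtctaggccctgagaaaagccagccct

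The other motifs searched were the E-box CACCTG, the GC box GGGCGG and the TATA box TATAAA, again on both strands. The E-box was in 8 of the 33 windows and in 17.49% of all windows. The GC box was in 17 and in 42.64%, and the TATA box in 2, those of ITGA6 and ITGB1, and in 10.72%. A motif is given as a description of the sequence only.

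The integrin subunits that bind laminin were well above background in both clones and differed by less than the test could call. ITGA6, the partner of ITGB4 in the hemidesmosome and of ITGB1 elsewhere, had scaled signals of 5.74 and 4.11 in vec and of 3.65 and 4.60 in shpkp3-2. On the log2 scale the difference was -0.24 ± 0.24 (adjusted p = 0.707), and -0.0036 without the first vec array. ITGB4, whose long cytoplasmic tail binds plectin, had scaled signals of 12.1 and 9.42 in vec and of 6.84 and 9.05 in shpkp3-2. This was a log2 fold change of -0.44 ± 0.23 (adjusted p = 0.506), and the higher shpkp3-2 array lay just below the lower vec array. It was -0.26 without the first vec array and -0.24 without the first shpkp3-2 array. ITGA3, which pairs with ITGB1 as a receptor of epithelial laminins, gave 7.06 and 4.72 in vec and 4.42 and 5.38 in shpkp3-2, with a log2 fold change of -0.24 ± 0.25. ITGA7, the laminin receptor of muscle, gave 5.54 and 4.42 in vec and 5.61 and 5.98 in shpkp3-2. Its log2 fold change was 0.23 ± 0.20, or 0.063 without the second vec array and 0.39 without the first. The first vec array was the highest of the 4 for ITGA3, ITGA6 and ITGB4.

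Of the subunits that bind collagen, ITGA2, the main collagen receptor of epithelia and platelets, had scaled signals of 4.11 and 2.84 in vec and of 4.24 and 5.87 in shpkp3-2. The clones did not overlap, though the lowest shpkp3-2 value lay close to the highest vec value. The fit gave a log2 fold change of 0.55 ± 0.27 (adjusted p = 0.479). The other ITGA2 probes, which were much dimmer than the first, gave 0.63 ± 0.35, 1.12 ± 0.38 and 0.48 ± 0.32. The first and the last of these gave 0.30 and 0.24 with normexp background correction. They gave 0.22 and 0.036 without the second vec array, and 1.05 and 0.92 without the first. The second of the 3 dimmer probes was called when the fit held the collection as a block (adjusted p = 0.041) and not without it (adjusted p = 0.341). This dim probe gave 0.56 with normexp background correction and 0.59 without the second shpkp3-2 array. The brightest probe gave 0.28 without the second vec array.

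ITGA1, a collagen receptor of stromal cells, was dim, with scaled signals of 0.0802 and 0.0415 in vec and of 0.069 and 0.109 in shpkp3-2. Its log2 fold change was 0.59 ± 0.38 and its arrays overlapped. Without the second vec array it was 0.11, and with normexp background correction 0.29. ITGA11, the collagen receptor of fibroblasts, was dim as well and had a log2 fold change of -0.06 ± 0.21. No array called ITGA10 well above background.

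Of the subunits that bind the RGD motif, ITGA5, which forms the classical fibronectin receptor with ITGB1, had scaled signals of 0.841 and 0.493 in vec and of 0.367 and 0.5001 in shpkp3-2. The second arrays of both clones were nearly equal and the first arrays were the highest and the lowest. On the log2 scale the difference was -0.59 ± 0.31 (adjusted p = 0.507), and -0.20 without the first vec array. ITGAV, which pairs with several beta subunits and binds vitronectin, gave 4.32 and 3.92 in vec and 4.07 and 4.90 in shpkp3-2, with a log2 fold change of 0.12 ± 0.19. Its second probe was near background, and well above it on only 1 of the vec arrays. ITGA2B, known from platelets, was dim, with log2 fold changes of 0.22 ± 0.22 and 0.35 ± 0.19 from its probes. The first of these ran from 0.0081 to 0.42 when each array was left out. For ITGA8 no array gave a signal well above background.

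ITGA9, a partner of ITGB1 that binds tenascin and osteopontin, had the lowest log2 fold change of the members. In vec its scaled signal was 0.185 and 0.169, and in shpkp3-2 it was 0.0943 and 0.115. The clones did not overlap, and the log2 fold change was -0.76 ± 0.19 (adjusted p = 0.232), or 0.589-fold with a 95% interval from 0.425 to 0.816. The probe was dim, with processed signals between 35.7 and 92.0, where the lowest signal called well above background was between 8.41 and 9.74. With normexp background correction the log2 fold change was -0.26. A second ITGA9 probe was well above background on no array. ITGA4, the other alpha subunit of this kind, reached that call on no array.

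Of the alpha subunits known from leukocytes, ITGAX, which marks dendritic cells and macrophages, had the highest log2 fold change of the members. In vec its scaled signal was 0.0791 and 0.0367, and in shpkp3-2 it was 0.0978 and 0.141. A second ITGAX probe was well above background on no array. The second vec array stood below the other 3, and without it the log2 fold change was 0.57, against 1.12 ± 0.39 with it (adjusted p = 0.349). In the fit that blocks on collection ITGAX was called (adjusted p = 0.0414), as were 2.86% of all genes, and with normexp background correction its log2 fold change was 0.48. No array called ITGB2, the only beta partner of ITGAX, well above background, and the same held for the pan-leukocyte marker PTPRC. The summed scaled signal of the 8 leukocyte markers, ITGB2 among them, was 1.66 and 2.11 in vec, against 1.70 and 1.86 in shpkp3-2, and the clones overlapped. Of the 5 of these markers that were well above background on every array, 3 had a log2 fold change above 0, against 58.3% of all genes, with a median of 0.22. At an unadjusted p under 0.05, 1 of the 5 (LCP1, named after its value was seen) was higher and 0 were lower, against 7.64% and 4.54% of all genes, and 0 passed after adjustment. The part of these markers in the difference of ITGAX was not tested.

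ITGAE, the alpha subunit of intraepithelial lymphocytes that binds E-cadherin, gave 4.56 and 5.32 in vec and 5.43 and 4.27 in shpkp3-2, with a log2 fold change of -0.03 ± 0.21. ITGAM, known from myeloid cells, was dim, with a log2 fold change of -0.03 ± 0.18. ITGAL was well above background on 2 of the 4 arrays, not both of 1 clone, and was not tested. For ITGAD no array gave a signal well above background.

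Of the beta subunits, ITGB1, the common partner of most alpha subunits, had scaled signals of 105 and 96.3 in vec and of 96.7 and 114 in shpkp3-2. This was a log2 fold change of 0.06 ± 0.19 and the 95% interval ran from 0.759-fold to 1.43-fold. Its other probes gave -0.23, -0.30 and -0.24, on the other side of 0, with SEs between 0.17 and 0.20. ITGB7, the lymphocyte homing subunit, gave 0.6005 and 0.870 in vec and 0.496 and 0.495 in shpkp3-2, with a log2 fold change of -0.54 ± 0.23 (adjusted p = 0.421), which was -0.28 without the second vec array. ITGB8, which activates latent TGF-beta together with ITGAV, was dim and gave 0.0735 and 0.0616 in vec and 0.0585 and 0.0552 in shpkp3-2, with a log2 fold change of -0.24 ± 0.19. The clones did not overlap for ITGB7 and ITGB8. ITGB5, a vitronectin receptor subunit, gave 3.58 and 4.13 in vec and 4.04 and 4.23 in shpkp3-2, with a log2 fold change of 0.10 ± 0.18. ITGB3 and ITGB6 were well above background on 0 of the 4 arrays.

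By their detected chains, 13 of the 24 known integrin pairs had both subunits well above background on all 4 arrays. These were the pairs of ITGB1 with ITGA1, ITGA2, ITGA3, ITGA5, ITGA6, ITGA7, ITGA9, ITGA11 and ITGAV, and ITGA6 with ITGB4, ITGAV with ITGB5 and with ITGB8, and ITGAE with ITGB7. None of the pairs with ITGB2, ITGB3 or ITGB6 was among them. In the hemidesmosomal pair the log2 fold changes were -0.24 for ITGA6 and -0.44 for ITGB4.

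Several genes had more than 1 probe well above background on all 4 arrays, and these probes were set beside each other. Of 7 such genes, 6 had each of these probes on the same side of 0, the exception being ITGB1. The probes of LAMB2 differed least, from 0.48 to 0.49, and those of LAMA4 most, from 0.05 to 0.85. For the other 21 tested genes there was 1 such probe.

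The difference between the clones was also taken within each RNA collection. For LAMA3 it was 0.44 in the first and 1.08 in the second collection, for LAMB3 0.29 and 0.68, and for LAMA4 0.64 and 1.05, on the log2 scale. All 3 of these genes were higher in shpkp3-2 in both collections, with the larger difference in the second. LAMC3 gave 0.51 and 0.67 and LAMB2 gave 0.33 and 0.63. For ITGA5 the difference was -1.199 in the first and 0.02 in the second collection. For ITGA1 it was -0.22 and 1.39, for ITGA2 0.05 and 1.05, and for ITGB4 -0.82 and -0.06. ITGA9 was lower in both (-0.97 and -0.56). Among the laminins, LAMC1 gave -0.75 and -0.05, and LAMA1 (0.27 and -0.02), LAMA2 (0.32 and -0.28), LAMA5 (0.19 and -0.13) and LAMB1 (-0.24 and 0.34) differed in direction between the collections. The direction was the same in both collections for 6 of 10 laminins and 9 of 18 integrins. With 1 array of each clone in a collection, the difference between collections could not be tested.

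The genes that work with integrins and laminins were taken from 5 lists, and none of their genes was called, against 0.434% of all genes tested. Among the partners of the hemidesmosome and the tetraspanins, COL17A1, the transmembrane collagen of hemidesmosomes, was the nearest to a call. In vec its scaled signal was 0.335 and 0.356, and in shpkp3-2 it was 0.970 and 0.815, at least 2-fold higher on each shpkp3-2 array. The fit gave a log2 fold change of 1.36 ± 0.19 (adjusted p = 0.0683), and a fit blocked by collection called it (adjusted p = 0.00272). CD151, a tetraspanin that binds laminin receptors, and CD9, a tetraspanin of many cell types, had log2 fold changes of 0.38 ± 0.41 and 0.20 ± 0.19, and that of CD151 was -0.18 without the second vec array. The median of the 10 tested genes of this list was 0.08.

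In the list of integrin activation and focal adhesion, 30 of 31 genes were tested, with a median log2 fold change of -0.09. At an unadjusted p under 0.05, 0 genes were higher and 3 were lower, against 7.64% and 4.54% of all genes. TNS4, a tensin of epithelial focal adhesions that lacks the actin-binding part, had scaled signals of 12.3 and 13.9 in vec and of 6.81 and 6.37 in shpkp3-2. Its log2 fold change was -0.99 ± 0.18 (adjusted p = 0.132), and a fit blocked by collection called it (adjusted p = 0.0442). The tyrosine kinase SRC gave 1.04 and 0.935 in vec and 0.586 and 0.482 in shpkp3-2, a log2 fold change of -0.89 ± 0.19 (adjusted p = 0.183). The focal adhesion protein vinculin (VCL) gave 5.76 and 4.02 in vec and 2.93 and 3.36 in shpkp3-2, a log2 fold change of -0.62 ± 0.23 (adjusted p = 0.382), or -0.36 without the first vec array. The arrays of the clones did not overlap for these 3 genes. In this list they did not overlap for 5 genes with higher and for 11 with lower values in shpkp3-2, against 28.4% and 17.2% of all genes.

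Of the other genes of the basement membrane 15 of 22 were tested, with a median of -0.09. SPARC, a secreted protein that binds collagen, was dim, with scaled signals of 0.128 and 0.153 in vec and of 0.0687 and 0.0741 in shpkp3-2. On the log2 scale the difference was -0.97 ± 0.19 (adjusted p = 0.149, or 0.0483 when blocked by collection), and -0.23 with normexp background correction. COL7A1, the collagen of anchoring fibrils, had 0.42 ± 0.20 and COL18A1, the collagen that yields endostatin, had -0.39 ± 0.17.

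Of the other laminin receptors 7 of 9 were tested, with a median of -0.20. MCAM, a cell adhesion molecule of the immunoglobulin family, gave 2.52 and 2.35 in vec and 1.22 and 1.36 in shpkp3-2, with a log2 fold change of -0.92 ± 0.18 (adjusted p = 0.152). SDC3, a heparan sulfate proteoglycan, gave 0.346 and 0.330 in vec and 0.172 and 0.195 in shpkp3-2, with a log2 fold change of -0.88 ± 0.18 (adjusted p = 0.163). For both genes the vec arrays lay above the shpkp3-2 arrays. The syndecan SDC1 had -0.43 ± 0.26, and -0.11 without the second vec array.

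Of the other ligands of integrins 24 of 30 were tested, with a median of 0.20. Osteopontin (SPP1), which binds ITGA9 and ITGAV integrins, gave 0.820 and 0.535 in vec and 0.374 and 0.395 in shpkp3-2, with a log2 fold change of -0.78 ± 0.25 (adjusted p = 0.310), or -0.48 without the first vec array. MFGE8, a bridging ligand of ITGAV integrins, gave 0.332 and 0.271 in vec and 0.414 and 0.529 in shpkp3-2, with a log2 fold change of 0.64 ± 0.22 (adjusted p = 0.334). The ranges did not overlap for either gene. MADCAM1, the ligand of ITGB7 integrins in gut vessels, was dim and had 0.54 ± 0.33, and 0.053 without the second shpkp3-2 array.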

How the data were processed

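The authors hybridized Cy3 labeled RNA and deposited the Feature Extraction output of each array (version 9.1 in the submitters' processing notes, 10.7.3.1 in the file headers). The deposited intensity used here is the processed signal, on a linear scale after background subtraction and detrending, with no normalization between arrays. The methods name a catalogue array, whereas the file headers give a custom design on hg18.

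From this the log2 of the signal minus the 75th percentile of each array was computed over 51538 spots that are not controls. Outlier spots (26 to 39 per array) were dropped and spots of a probe averaged. A probe was tested where it was well above background on both arrays of a clone (30512 probes). The clones were set against each other in limma 3.58.1 (R 4.3.3), without covariates, with Benjamini-Hochberg adjustment over all probes tested and a threshold of 0.05. The script was tested on simulated data. Tables and figures were made with Python 3.11.15. With 2 arrays per clone, precision is limited by the number of arrays, and an exact permutation test cannot go below p = 0.333.

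The series' design text ties arrays of the same number to 1 RNA collection. Their deviations from the clone means had a correlation of -0.199 over the 30512 probes. The block fit is an alternative, beside normexp, quantile and median scaling, other filters, a floor, a trended prior, the mean of probes and leaving out each array.

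Probes were matched to RefSeq (GRCh38.p14) by accession for 63 and by symbol for 4 of 67 probes. The members reported are named in the order of their roles, and 1 further member is not reported here. Genes of the lists are named where they were called or had 1 of the 3 largest differences, and PKP3 as the check of the labels. The members, the lists and the motifs were chosen with earlier results of these data known. The design text names the arrays of a clone as biological replicates without saying whether cultures were separate, so that p-values measure only the spread between these samples.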

Additional observations from a re-analysis of the deposited data

How the results depend on the processing

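The count of 0 members called higher and 0 lower held in each alternative but one: with the replicate block 1 member, ITGAX, was called higher. This pairing by RNA collection called no other member by its brightest probe, and raised the count of partner genes called from 0 to 3 (COL17A1, TNS4 and SPARC), in a fit that called 2.86% of all genes. A crossed pairing, added after the data were seen, called 0 members and 0 partner genes. The count of partner genes called was 2 with normexp background correction, 2 with the trended and robust prior and 1 with the mean of all probes of a gene, and it was 0 to 1 over the fits without 1 array each. COL17A1 was the gene called without the second vec array. ITGAX was the only member past 2-fold when an array was left out. Its log2 fold change was then 1.68 without the first vec array and 1.39 without the first shpkp3-2 array. With all arrays and a 1.5-fold rule the members were 4, namely ITGA9, ITGAX, LAMA3 and LAMA4. The share of all genes at 1.5-fold was not computed. The median log2 fold change of the members was 0.0246 to 0.145 when each array was left out, the highest without the first shpkp3-2 array. The laminins above 0 fell from 9 to 8 with quantile normalization and to 6 without the first vec array, and the median of the laminins without each array was 0.28 to 0.40. The median of the integrins, -0.03, was above 0 with normexp (0.03), the weaker flag (0.02), no filter (0.10), without the second vec array (0.06) and without the first shpkp3-2 array (0.02), and that of the laminins was 0.13 with no filter. PKP3 was no longer called with no filter on dim probes (limma adjusted p = 0.135) or with the weaker background flag (adjusted p = 0.145). Its log2 fold change stayed at -2.54 in both. These settings tested 50117 and 37849 probes, against 30512, and the cause of the lost call was not tested. The log2 fold change of PKP3 ran from -2.80 to -2.28 when each array was left out.

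Log2 fold changes near 0 changed sign. With normexp background correction these were ITGA11 (0.11), ITGAM (0.13) and ITGB8 (0.0012). With quantile normalization they were ITGB1 (-0.076) and LAMB1 (-0.0109), and with the mean of its probes ITGB1 (-0.18). When each array was left out, ITGA11 ran from -0.27 to 0.14, ITGA3 from -0.533 to 0.0475, ITGAE from -0.21 to 0.14, ITGAM from -0.137 to 0.0767, ITGAV from -0.0155 to 0.251, ITGB1 from -0.0579 to 0.178, LAMA1 from -0.10 to 0.35, LAMA2 from -0.19 to 0.22, LAMA5 from -0.11 to 0.16 and LAMB1 from -0.14 to 0.23. The cause was not tested.

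Over all 30512 probes, 75 were called higher and 44 lower. The counts were 503 and 338 with the replicate block, 64 and 40 with the crossed pairing, 109 and 64 with normexp, 42 and 32 with quantile normalization, 10 and 8 with no filter, 25 and 21 with detection asked on all arrays, 1 and 1 with the weaker flag, 114 and 59 with the trended prior, 181 and 76 without the first vec array and 400 and 202 without the second. The dim probes of ITGAX, ITGA9, ITGA1, ITGA11, ITGAM, ITGA2B, ITGB8 and LAMA1 lie closest to background, where the signal limits what can be seen.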
